A study of Mus musculus with 12 samples.

Results

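The Bcl2 family survival and death genes were followed here through RGCs and non-RGCs of newborn mice with and without deletion of Ezh2. The members are the rows for Bcl2, Bcl2l1, Bcl2l2, Mcl1, Bax, Bak1, Bcl2l11, Bbc3, Pmaip1 and Bid, so 10 of the 38720 genes listed, and all 10 had enough reads to be tested in both cell fractions. RNA was sequenced from retinas of C57/BL6 pups at P0, with 3 libraries from independent RNA extractions in each of 4 groups: mKO RGCs, WT RGCs, mKO non-RGCs and WT non-RGCs. mKO pups carried Math5-Cre and Ezh2 flox/flox, so that Cre knocked into the Math5 locus removes the SET domain exons of Ezh2. This happens in cells that have expressed Math5 and in their descendants. By the paper's account these include only a part of the RGCs. They also include a small share of other retinal cells, such as photoreceptors and amacrine cells, so both fractions can hold deleted cells. The other pups are labelled wild type. The study's methods call the RNA-seq controls WT but name Ezh2 flox/flox littermates as its usual controls, so the sources leave it unclear whether these pups carried floxed alleles. The mKO pups also differ from them by Cre and its knock-in allele of Math5, and no group carried Math5-Cre alone. Effects of Cre or of that allele therefore cannot be told apart here from effects of Ezh2 loss. RGCs were pulled from papain-dissociated retinas with magnetic beads against CD90 (Thy-1), and the cells left behind were the non-RGCs. How many pups went into each extraction is not given in the sources used here, so the p-values measure the spread between these libraries, which may be partly technical.

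Ezh2 is the methyltransferase that places the repressive mark H3K27me3 on chromatin. The Bcl2 family decides whether the outer membrane of mitochondria is opened, which releases cytochrome c and starts the caspases. Bcl2, Bcl2l1 (Bcl-xL), Bcl2l2 (Bcl-w) and Mcl1 guard the membrane, Bax and Bak1 are the effectors that perforate it, and the BH3-only proteins Bcl2l11 (Bim), Bbc3 (Puma), Pmaip1 (Noxa) and Bid tip the balance towards the effectors. In the retina this pathway removes RGCs during normal development and after injury to the optic nerve, and loss of Bax is known to spare RGCs from both.

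On GRCm38 the guards lie at chr1:106538178-106714274 for Bcl2 (minus strand), chr2:152780668-152831728 for Bcl2l1 (minus), chr14:54883377-54888234 for Bcl2l2 (plus) and chr3:95658788-95663176 for Mcl1 (plus). The effectors lie at chr7:45461697-45466898 for Bax (minus) and chr17:27019810-27029009 for Bak1 (minus). The BH3-only genes lie at chr2:128126038-128162547 for Bcl2l11 (plus), chr7:16308393-16318205 for Bbc3 (plus) and chr6:120891930-120916853 for Bid (minus). Exons of 5 members share bases with exons of another gene, and reads there cannot be given to either with certainty, all the more since no source used here states that strand was used. Bid shared 628 bases with Bcl2l13, Bak1 shared 437 and 177 with parts of Ggnbp1 and Bcl2 shared 558 with D630008O14Rik on the opposite strand, while Bcl2l2 shared 594 with Gm20521 and Bax 192 with Gm45808 on the same strand. Of these, Gm20521 was listed at 0 reads in every library and D630008O14Rik had at most 2 reads per library, while Ggnbp1 had between 28 and 148 reads per library and Bcl2l13 between 1397 and 3006.

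The promoters of the 5 members with the largest log2 fold changes among those that passed the test in RGCs are shown because the results turn on these genes. Each line is the 250 bases before the start given by RefSeq on GRCm38.p6, written 5′ to 3′ on the gene's own strand, and capitals mark the GC box GGGCGG or its reverse complement. Bbc3 has 3 listed starts and Bcl2l11 has 2, and the most upstream start is shown for both.
Bbc3 (chr7:16309333-16309582, plus strand): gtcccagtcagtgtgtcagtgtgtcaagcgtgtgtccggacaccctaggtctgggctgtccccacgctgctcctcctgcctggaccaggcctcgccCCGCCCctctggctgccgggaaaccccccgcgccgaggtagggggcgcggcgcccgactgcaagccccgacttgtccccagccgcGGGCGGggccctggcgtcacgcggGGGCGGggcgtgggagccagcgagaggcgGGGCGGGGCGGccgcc
Bax (chr7:45466899-45467148, minus strand): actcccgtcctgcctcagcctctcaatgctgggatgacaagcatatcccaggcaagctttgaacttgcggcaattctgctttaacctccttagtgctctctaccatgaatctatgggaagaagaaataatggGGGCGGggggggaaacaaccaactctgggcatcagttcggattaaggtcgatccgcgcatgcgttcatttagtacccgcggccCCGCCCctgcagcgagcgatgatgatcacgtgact
Bak1 (chr17:27028628-27028877, minus strand): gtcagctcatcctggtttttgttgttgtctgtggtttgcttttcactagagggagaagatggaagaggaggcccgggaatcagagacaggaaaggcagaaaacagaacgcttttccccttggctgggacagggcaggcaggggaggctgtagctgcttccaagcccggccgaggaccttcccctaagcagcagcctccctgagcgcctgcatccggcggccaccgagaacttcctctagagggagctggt
Bcl2 (chr1:106714291-106714540, minus strand): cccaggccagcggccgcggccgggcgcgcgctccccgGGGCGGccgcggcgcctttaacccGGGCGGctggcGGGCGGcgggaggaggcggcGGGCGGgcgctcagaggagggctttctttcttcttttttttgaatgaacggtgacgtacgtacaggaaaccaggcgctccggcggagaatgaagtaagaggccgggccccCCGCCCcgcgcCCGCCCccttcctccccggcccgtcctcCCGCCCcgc
Bcl2l11 (chr2:128125788-128126037, plus strand): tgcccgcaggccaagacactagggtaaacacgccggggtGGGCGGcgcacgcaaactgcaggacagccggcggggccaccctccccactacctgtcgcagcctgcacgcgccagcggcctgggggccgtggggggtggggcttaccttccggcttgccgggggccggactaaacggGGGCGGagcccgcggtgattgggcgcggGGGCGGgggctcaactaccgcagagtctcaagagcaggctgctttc
Promoter windows were taken for 9 of the 10 members, and Pmaip1 was left out of this search beforehand. Of their 14 listed windows 10 held a GC box, all but those of Bak1 and Bcl2l1, against 32.9% of all 27025 promoter windows of this length, with both strands searched and overlapping matches counted separately. The Bbc3 window above held 5 matches, the Bcl2 window 7, the Bcl2l11 window 3 and the Bax window 2. CCAAT (either strand) was found in 3 of the 14 windows, those being of Bbc3 and Bcl2l11, against 34.5% of all windows, and TATAAA in 0 of the 14, against 12.97%. The GC content of the printed windows ran from 54.0% for Bax and 58.4% for Bak1 to 72% for Bcl2l11, 74.8% for Bcl2 and 76.4% for Bbc3, against a median of 52.0% over all promoters. The promoters with the highest GC content thus belonged both to a gene that fell, Bbc3, and to genes that rose, Bcl2 and Bcl2l11. A match describes the letters of the window and not a bound site.

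Reads counted on genes came to 10600964 to 13014004 per RGC library and 7139633 to 12828281 per non-RGC library. Libraries carry no replicate number and are lettered by depth within a group, with A the deepest and C the shallowest. Values below are normalized reads, which are the reads of a library divided by its size factor from the authors' DESeq scaling. The 12 RGC marker genes summed to 2619 to 2766 CPM (reads per 1000000 reads on genes) in WT RGCs and to 512 to 539 in WT non-RGCs, so the labelled fractions differ as their names say. Ezh2 itself (chr6:47530139-47595341) did not pass the test in either fraction, with a log2 fold change of 0.09 (SE 0.133, adjusted p = 0.637) in RGCs and 0.13 (SE 0.146, adjusted p = 0.584) in non-RGCs; its count covers the whole gene and not the deleted exons alone.

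The comparison of mKO with WT RGCs asks whether the family's RNA differed between RGCs of pups with the Math5-Cre deletion of Ezh2 and RGCs of WT pups. Bcl2 and Bcl2l11 rose and Bcl2l1, Mcl1, Bax, Bak1 and Bbc3 fell, so that 7 of 10 members passed an adjusted p of 0.05 in limma. Among all 16085 genes tested 37.5% passed, 16.3% higher and 21.2% lower. The median log2 fold change was -0.07 over the 10 members and -0.00 over all genes tested. In 9 of the 10 members the values of the mKO and WT libraries did not overlap, 4 with mKO higher and 5 with mKO lower, where 53.0% of all genes tested did not overlap (24.8% with mKO higher and 28.2% lower). By another rule, an unadjusted p under 0.05 with a fold of at least 1.5, Pmaip1 was higher and Bax, Bak1 and Bbc3 lower, against 16.3% of all genes in either direction and 6.22% lower. In bulk RNA, fewer cells of a type and less RNA per cell cannot be told apart.

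**Figure D1:**
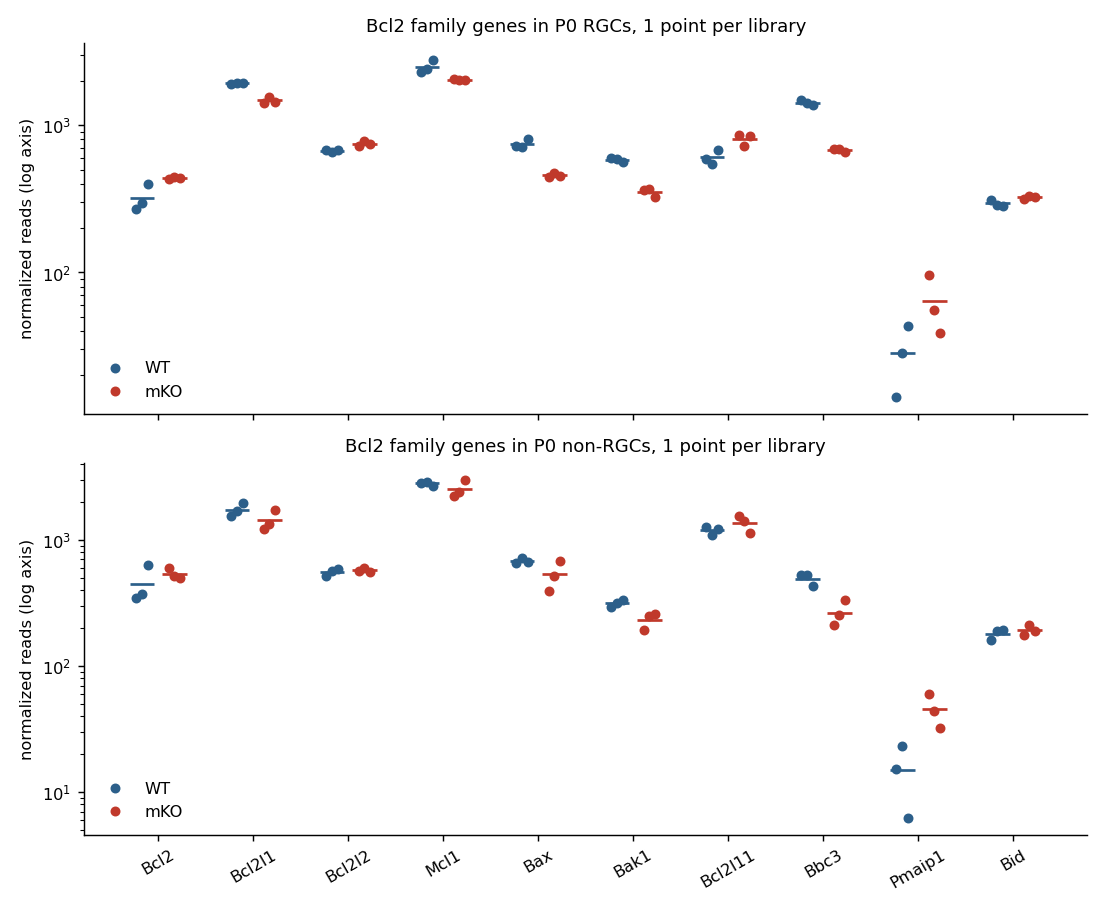
Normalized reads (log axis) of the 10 members in RGCs (upper panel) and non-RGCs (lower panel). Each point is 1 library, blue for WT and red for mKO, and each bar is the mean of 3 libraries. Bbc3 shows the widest gap without overlap in RGCs, between 653 and 689.7 in mKO and between 1365 and 1472 in WT, while the Pmaip1 points of the genotypes overlap in RGCs and do not in non-RGCs.

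Among the guards, Bcl2, the founding member of the family, gave 434, 448 and 439 normalized reads in the mKO RGC libraries A, B and C and 271, 295 and 396 in the WT ones. All 3 mKO libraries lay above all 3 WT libraries, of which library C came close. The log2 fold change was 0.48 (SE 0.143, adjusted p = 0.0369). The adjusted p was 0.000277 without WT library C and between 0.0941 and 0.109 without any 1 of the other libraries, so the call was lost in those 5 fits.

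Bcl2l1, whose product Bcl-xL is the main guard of neurons, went the other way, with 1416, 1566 and 1444 normalized reads in mKO RGCs and 1890.3, 1936 and 1943 in WT RGCs. The groups lay well apart, and the log2 fold change was -0.38 (SE 0.0567, adjusted p = 0.0026). It passed without any 1 of the 6 libraries. Mcl1, a guard with a short-lived protein, gave 2043, 2039.6 and 2026 in mKO and 2296, 2407 and 2789 in WT RGCs, a log2 fold change of -0.29 (SE 0.0774, adjusted p = 0.0245). The 3 mKO values of Mcl1 were nearly equal, and WT library C lay above the other WT libraries. Its adjusted p was 0.0754, 0.0776 and 0.0818 without mKO library A, B and C. Bcl2l2, the guard Bcl-w, gave 722, 775 and 743 in mKO and 678, 655 and 677 in WT RGCs. All mKO libraries were higher, but the log2 fold change of 0.16 (SE 0.0598) had an adjusted p of 0.0792, and 0.0354 without WT library C.

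The effectors moved together. Bax gave 447, 476 and 451 normalized reads in mKO RGCs and 722, 713 and 804 in WT RGCs, and its mean was 1.63-fold lower in mKO (log2 fold change -0.70, SE 0.0742, adjusted p = 0.000891). Bak1 gave 364, 366 and 325 in mKO and 601, 587 and 560.2 in WT RGCs, and its mean was 1.66-fold lower (log2 fold change -0.73, SE 0.0801, adjusted p = 0.000946). Neither overlapped between the genotypes, and both passed without any 1 of the 6 libraries.

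The BH3-only genes split. Bbc3 encodes Puma, which is induced by p53 and binds every guard, and it gave 684, 689.7 and 653 normalized reads in mKO RGCs against 1472, 1418 and 1365 in WT RGCs. Its mean was 2.10-fold lower in mKO RGCs, the largest fall of the 10 members, with a log2 fold change of -1.07 (SE 0.0575, adjusted p = 0.000644). It passed without any 1 of the 6 libraries. Bcl2l11, which encodes Bim, a mediator of death after loss of trophic support, rose instead. It gave 863, 723 and 838 in mKO and 593, 548 and 683 in WT RGCs, a log2 fold change of 0.41 (SE 0.106, adjusted p = 0.0215). The lowest mKO value, in library B, was close to the highest WT value, in library C. The adjusted p of Bcl2l11 was 0.062 and 0.0594 without WT library A and B and 0.085 and 0.0831 without mKO library A and C.

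Pmaip1 encodes Noxa, the partner of Mcl1, and had the fewest reads of the family. It gave 96.9, 55.3 and 38.6 normalized reads in mKO RGCs (111, 60 and 41 reads) and 14.2, 28.2 and 43.2 in WT RGCs (14, 26 and 37 reads). The lowest mKO library lay below the highest WT library, and the log2 fold change of 1.16 (SE 0.476) had an adjusted p of 0.0965, and 0.0212 without WT library C. Bid, which couples death receptors to mitochondria once a caspase has cut it, gave 317, 330.1 and 327 in mKO and 312, 287 and 285 in WT RGCs. Its groups lay apart by a small distance, with a log2 fold change of 0.14 (SE 0.084, adjusted p = 0.225).

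The log2 fold changes went with the base composition of the genes. The exons of the members that rose had a GC content of 44.9% (Bcl2) and 46.9% (Bcl2l11), while those of Bbc3, Bax, Bak1 and Bcl2l1 had 63.7%, 58.7%, 57.1% and 53.9%, and Mcl1, which also fell, had 48.7%. Over the 12798 genes whose mean in RGCs reached 50, Spearman's rho between exon GC content and log2 fold change was -0.72, given as a description since genes of 1 set of libraries are not independent. The median log2 fold change was 0.36 in the fifth of genes with the lowest GC content (up to 43.7%) and -0.45 in the fifth with the highest (from 55.3%).

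**Figure D2:**
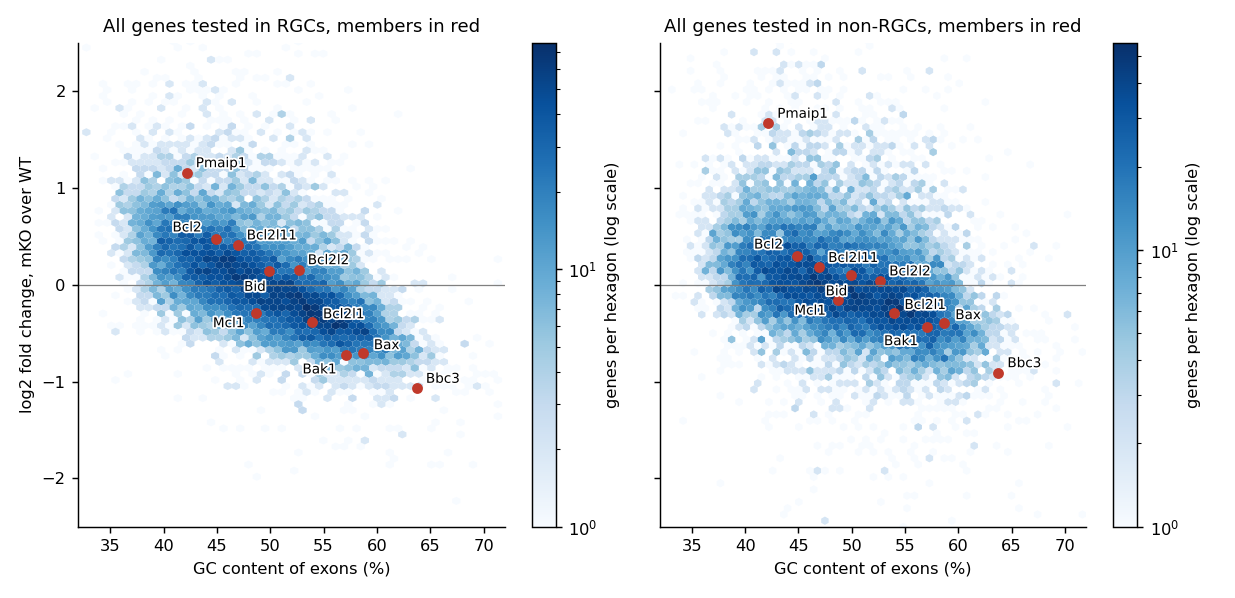
Log2 fold change of mKO over WT against the GC content of exons (%) for all genes tested in RGCs (left) and non-RGCs (right), with darker hexagons holding more genes and the 10 members as red points. Genes past the limits of the axes are not drawn. The cloud slopes downwards in both fractions, and Bbc3, at 63.7% GC, is the lowest red point in both.

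When each library's trend with exon GC content was removed before limma, 1 member was higher and 2 were lower, so 3 of 10 passed, against 14.1% of all genes (5.10% higher and 9.03% lower). Bbc3 stayed lower, at -0.38 (SE 0.0589, adjusted p = 0.0103), and Bak1 too, at -0.33 (SE 0.0802, adjusted p = 0.0404), while Bcl2l2 was now higher, at 0.37 (SE 0.0532, adjusted p = 0.00817). When the trend with reads per base of exon was also removed, 2 of 10 passed, 1 in each direction, against 6.33% of all genes (2.22% higher and 4.11% lower). These were Bbc3, at -0.42 (SE 0.0604, adjusted p = 0.0162), and Bcl2l2, at 0.34 (SE 0.0535, adjusted p = 0.0202). Bak1 was at -0.36 (SE 0.0844, adjusted p = 0.0556), Bax at -0.17 (SE 0.0643, adjusted p = 0.167), Bcl2 at 0.14 (SE 0.132, adjusted p = 0.558), Bcl2l11 at 0.24 (SE 0.101, adjusted p = 0.201), Bcl2l1 at -0.03 (SE 0.0479, adjusted p = 0.777), and Mcl1 turned to 0.01 (SE 0.0747, adjusted p = 0.956). Bbc3 was thus the 1 member that passed in the same direction under the deposited scaling and after either removal. What gives rise to the trend was not tested.

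**Figure D3:**
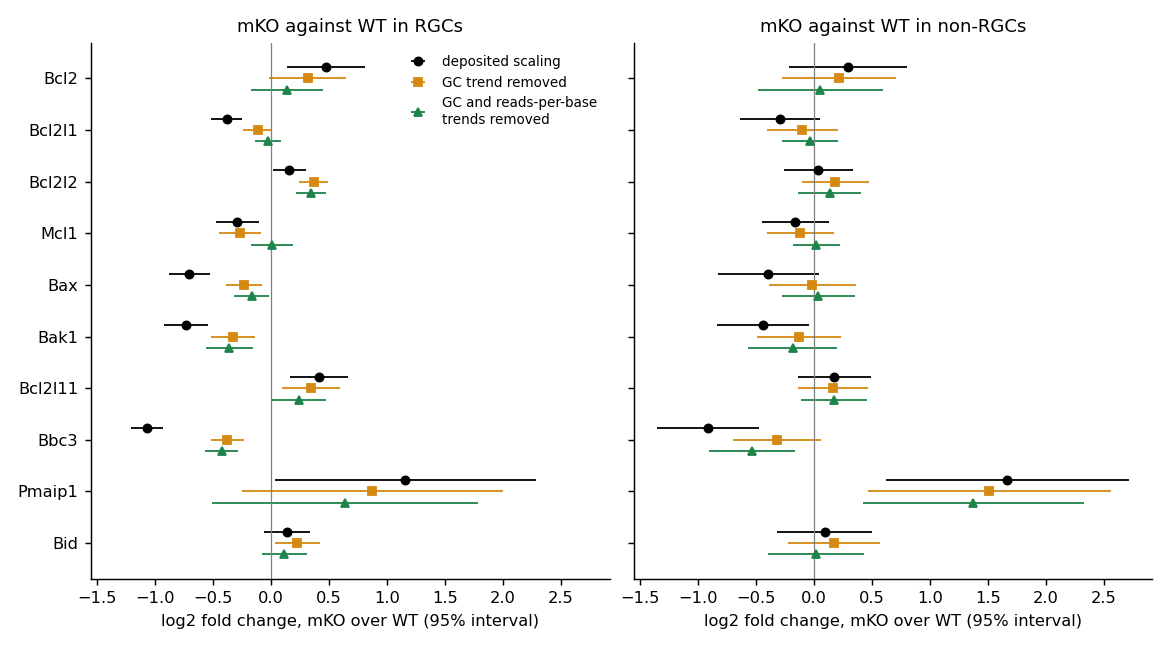
Log2 fold change of mKO over WT with its 95% interval for the 10 members in RGCs (left) and non-RGCs (right): black circles for the deposited scaling, orange squares with the trend of exon GC content removed, and green triangles with the trend of reads per base removed as well. In RGCs Bbc3 moves from -1.07 to -0.42 and stays below 0, while Mcl1 moves from -0.29 to 0.01.

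Limma-voom, which changes the scaling (reads on genes in place of the deposited size factors) and the model together, gave a median of all genes that was higher by 0.12 on the log2 scale, and 64.2% of its calls were higher in mKO, against 43.5%. Under it no member changed its direction, Mcl1 did not pass (log2 fold change -0.16, adjusted p = 0.150) and Bcl2l2 did (0.28, adjusted p = 0.0154); the same calls changed when the median of all genes was set to 0, with adjusted p of 0.0548 and 0.0274. Markers of several cell types differed between the genotypes in the RGC fraction. Their counts stand beside 21.2% of all genes lower and 16.3% higher under the deposited scaling. Of the 12 RGC markers 10 were lower in mKO RGCs, with sums of 2059 to 2130 CPM against 2619 to 2766 in WT RGCs, and none was at or under 3 reads in every library. With the GC trend removed 8 of these were lower, and with both trends removed 2. Photoreceptor markers were lower in 5 of 10, with sums of 515 to 567 CPM against 582 to 872, and amacrine markers in 4 of 8, with sums of 763 to 809 against 807 to 944 that overlapped. Blood markers were higher in 5 of the 6 tested, with sums of 24.8 to 30.7 against 10.2 to 11.98 CPM. Microglia markers passed in 0 of 8, with overlapping sums of 138 to 289 against 219 to 330. Progenitor markers were lower in 4 of 10, with overlapping sums of 1224 to 1336 against 1196 to 2005. Astrocyte and Mueller markers were lower in 2 of the 7 tested, with overlapping sums of 327 to 412 against 356 to 525. Endothelial and pericyte markers were lower in 1 of 8, with overlapping sums of 311 to 403 against 331 to 448. With the GC trend removed 2 photoreceptor, 3 amacrine, 1 astrocyte and Mueller, 0 progenitor and 0 endothelial markers were lower, against 9.03% of all genes. With both trends removed these numbers were 2, 1, 0, 0 and 0, against 4.11%. Blood markers stayed higher in 5 of 6 after either removal, against 5.10% and 2.22% of all genes. Bcl2l2 and Pmaip1 passed without WT library C. Among the WT RGC libraries it had the highest sum for every marker list but that of RGCs. The part of these markers in the members' changes was not tested.

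In non-RGCs, where the same question is asked of the cells that the beads left behind, Bbc3 was the 1 member of 10 that passed the test, and it fell. Of the 15326 genes tested 10.6% passed, 4.18% higher and 6.43% lower. The median log2 fold change was -0.06 over the members and -0.03 over all genes. In 3 of 10 members the genotypes did not overlap, 1 with mKO higher and 2 lower, against 36.7% of all genes (17.5% higher and 19.2% lower). By the rule of an unadjusted p under 0.05 and a fold of at least 1.5, 1 member was higher, Pmaip1, and 1 lower, Bbc3, against 15.7% of all genes (8.89% higher and 6.79% lower). Bbc3 gave 210.4, 251 and 332 normalized reads in mKO non-RGCs and 523, 522 and 426 in WT non-RGCs, so the genotypes did not overlap and mKO was the lower. Its mean was 1.85-fold lower in mKO, with a log2 fold change of -0.91 (SE 0.197, adjusted p = 0.0236). The adjusted p was 0.0627 and 0.0862 without WT library A and B and 0.108 without mKO library B.

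The other members without overlap were Pmaip1 and Bak1. Pmaip1 gave 60.1, 44.1 and 32.5 normalized reads in mKO non-RGCs (78, 46 and 23 reads) and 15.3, 23.2 and 6.26 in WT non-RGCs (17, 24 and 6 reads). All mKO libraries lay above all WT libraries, and the log2 fold change was 1.67 (SE 0.468, adjusted p = 0.0503), just over the threshold. Bak1 gave 193, 249 and 257 in mKO and 291, 315 and 335 in WT non-RGCs, a log2 fold change of -0.44 (SE 0.177, adjusted p = 0.134).

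The remaining effector and the guards overlapped between the genotypes. Bax gave 392.2, 519.8 and 682 normalized reads in mKO non-RGCs and 659.5, 712 and 670.5 in WT non-RGCs, with library C of mKO, the shallowest of the series, inside the WT range. Its log2 fold change was -0.39 (SE 0.195, adjusted p = 0.207), and -0.59 with an adjusted p of 0.0499 without that library. Bcl2l1 gave 1228, 1332 and 1723 in mKO and 1549, 1693 and 1953 in WT non-RGCs (log2 fold change -0.29, adjusted p = 0.240).

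In the same mKO library C, Mcl1 was also the highest of its group, with 2202, 2380.4 and 2967 in mKO and 2811, 2891 and 2670.4 in WT non-RGCs (log2 fold change -0.16, adjusted p = 0.429). Bcl2 gave 593, 512 and 498 in mKO and 344, 372 and 635 in WT non-RGCs, so that WT library C was the highest of all 6. Its log2 fold change was 0.30 (SE 0.227, adjusted p = 0.401), and 0.57 with an adjusted p of 0.0437 without that library. For Bcl2l2 the log2 fold change was 0.04 (SE 0.132, adjusted p = 0.864), for Bid 0.10 (SE 0.183, adjusted p = 0.758) and for Bcl2l11 0.18 (SE 0.141, adjusted p = 0.419). Bcl2l11 gave 1535, 1401 and 1139.6 in mKO and 1264, 1089.6 and 1225 in WT non-RGCs, and the ranges overlapped.

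The GC trend was present in non-RGCs as well, with a Spearman's rho of -0.49 over 12232 genes and a median of 0.18 in the fifth of genes with the lowest GC content and of -0.34 in the fifth with the highest. With it removed, 0 of 10 members passed in limma, with Pmaip1 alone at an unadjusted p under 0.05, against 1.52% of all genes (0.917% higher and 0.607% lower), and with reads per base also removed 0 of 10, against 2.12% (0.989% higher and 1.13% lower), with Bbc3 and Pmaip1 at an unadjusted p under 0.05. Bbc3 was then at -0.32 (SE 0.167, adjusted p = 0.283) and -0.53 (SE 0.165, adjusted p = 0.108), and Pmaip1 at 1.51 (SE 0.466, adjusted p = 0.105) and 1.38 (SE 0.421, adjusted p = 0.104). Limma-voom, with its other scaling and model, gave a median of all genes that was higher by 0.17, and 76.3% of its calls were higher against 39.4%; under it Pmaip1 passed (log2 fold change 1.93, adjusted p = 0.033). With the median of all genes set to 0 that share was 54.7% and Pmaip1 had an adjusted p of 0.0468. RGC markers were higher in mKO non-RGCs for 8 of 12, with sums of 608 to 814 CPM against 512 to 539 in WT non-RGCs, and for 5 of 12 after either removal. Blood markers were higher for 5 of the 6 tested, with sums of 57.8 to 86.6 against 12.7 to 20.1. Photoreceptor markers were lower for 5 of 10, with sums of 1042 to 1199 against 1221 to 1501, and amacrine markers for 2 of 8, with sums of 1206 to 1414 against 1470.0 to 1515, neither with overlap. Endothelial and pericyte markers passed in 0 of 8, with sums of 534 to 599 against 617.5 to 649.9, also without overlap. Progenitor markers were lower for 1 of 10 and astrocyte and Mueller markers for 1 of the 7 tested, both with overlapping sums. Microglia markers passed in 0 of the 6 tested, with overlapping sums. Of all genes tested 4.18% were higher and 6.43% lower, as given above. The part of these markers in the members' values was not tested.

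Whether the change differed between the fractions was tested with the genotype by fraction term of limma over all 12 libraries. Of the 10 members 0 passed, with 0 also at an unadjusted p under 0.05, where 0.0969% of 16517 genes passed and 9.66% had such a p. Bbc3 differed by -0.16 on the log2 scale between RGCs and non-RGCs, with a 95% interval from -0.61 to 0.29. Bax differed by -0.31 (-0.79 to 0.17), Bak1 by -0.29 (-0.69 to 0.11) and Bcl2l11 by 0.23 (-0.16 to 0.62). The interval for Pmaip1 was the widest, from -2.04 to 1.02 around -0.51. These intervals are as wide as many of the changes themselves, so no member was shown to differ between the fractions or to act alike in them.

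Levels can be compared between genes only per length, and are given as RPKM (reads per 1000000 reads on genes and per kilobase of exon), as mean ± SD of 3 libraries. In WT RGCs Mcl1 was at 58.4 ± 6.58, Bbc3 at 53.4 ± 1.84, Bax at 37.9 ± 2.95, Bcl2l1 at 33.5 ± 0.653 and Bak1 at 19.4 ± 0.591. Bcl2l2 followed at 12.002 ± 0.366, Bid at 6.63 ± 0.355, Bcl2l11 at 6.06 ± 0.752, Bcl2 at 2.80 ± 0.605 and Pmaip1 at 0.836 ± 0.431. Neighbours in this order whose libraries overlapped were Mcl1 with Bbc3 and Bid with Bcl2l11. The RNA of Puma thus overlapped in level with that of the leading guard in WT RGCs, and Bcl2, for which the family is named, was the ninth of the 10.

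In mKO RGCs the RPKM levels ran from Mcl1 at 51.9 ± 0.931 through Bcl2l1 at 28.0 ± 1.56, Bbc3 at 27.7 ± 1.15 and Bax at 25.3 ± 0.953. Below these lay Bcl2l2 at 14.6 ± 0.523, Bak1 at 12.7 ± 0.997, Bcl2l11 at 8.76 ± 0.821, Bid at 7.96 ± 0.137, Bcl2 at 4.18 ± 0.0832 and Pmaip1 at 2.03 ± 0.983. Bcl2l1 with Bbc3 and Bcl2l11 with Bid overlapped. Bbc3 held the second place in WT and the third in mKO RGCs, and Bak1 had changed places with Bcl2l2.

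**Figure D4:**
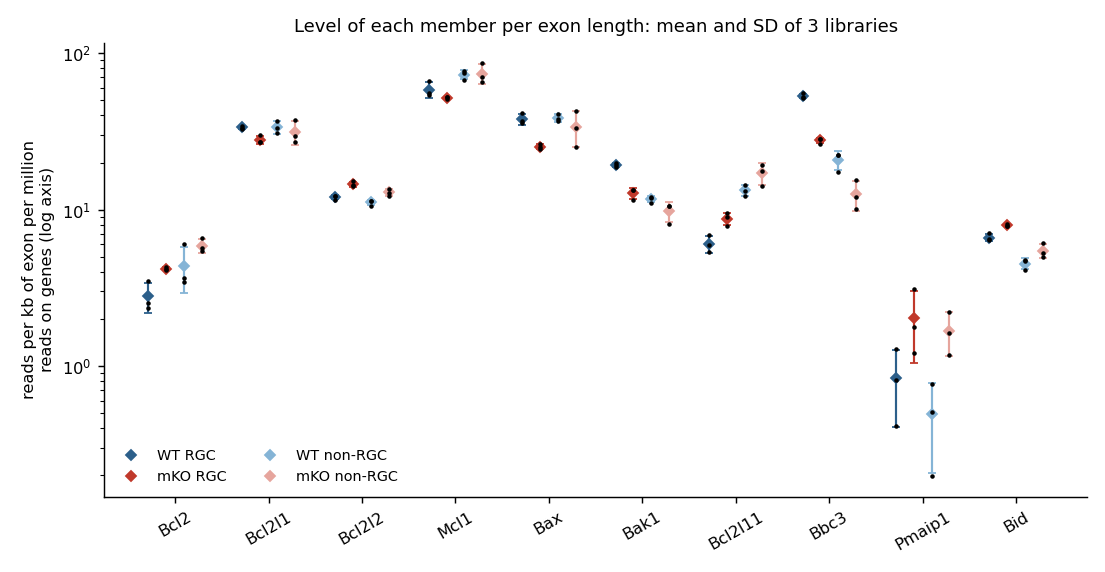
RPKM (log axis) for the 10 members in the 4 groups. Diamonds are means, bars are SDs over 3 libraries and black dots are single libraries. Mcl1 is the highest diamond and Pmaip1 the lowest in every group, and Bbc3 lies between 53.4 in WT RGCs and 12.5 in mKO non-RGCs.

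In WT non-RGCs Mcl1 was at 73.0 ± 4.80 RPKM, Bax at 38.6 ± 2.08, Bcl2l1 at 33.7 ± 3.01, Bbc3 at 20.7 ± 2.88 and Bcl2l11 at 13.3 ± 1.05. Bak1 was at 11.6 ± 0.522, Bcl2l2 at 11.1 ± 0.466, Bid at 4.52 ± 0.364, Bcl2 at 4.36 ± 1.42 and Pmaip1 at 0.493 ± 0.286. Bax with Bcl2l1, Bak1 with Bcl2l2 and Bid with Bcl2 overlapped. In mKO non-RGCs Mcl1 at 74.0 ± 10.9, Bax at 33.8 ± 8.88 and Bcl2l1 at 31.3 ± 5.33 led, ahead of Bcl2l11 at 17.03 ± 2.69, Bcl2l2 at 12.9 ± 0.628, Bbc3 at 12.5 ± 2.77 and Bak1 at 9.73 ± 1.41. Bcl2 at 5.87 ± 0.6, Bid at 5.44 ± 0.562 and Pmaip1 at 1.68 ± 0.525 closed the order. Here Bax with Bcl2l1, Bcl2l2 with Bbc3, Bbc3 with Bak1 and Bcl2 with Bid overlapped.

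The RPKM levels of the fractions are set side by side, and the differences between fractions were not tested. RPKM rests on the reads on genes of each library and not on the size factors of the separate tables. Bbc3 was 2.58-fold higher in RGCs than in non-RGCs of WT mice and 2.22-fold higher in mKO mice. Bak1 was 1.66-fold and 1.31-fold higher and Bid 1.47-fold and 1.46-fold higher in RGCs of WT and mKO mice, with no overlap of libraries in any of these. Bcl2l11 went the other way and was 2.19-fold higher in non-RGCs of WT mice and 1.94-fold in mKO mice, and Mcl1 was 1.25-fold and 1.43-fold higher there. Bbc3 and Bcl2l11 thus had the widest gaps without overlap, in opposite directions. Bcl2l2 was 1.08-fold and 1.13-fold higher in RGCs without overlap, Bcl2 overlapped in WT mice, and Bcl2l1, Bax and Pmaip1 overlapped in both genotypes.

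Summed by role, the guards came to 101 to 116 RPKM in WT RGCs and to 96.2 to 101 in mKO RGCs, the effectors to 55.0 to 60.1 and 36.1 to 39.6, and the BH3-only genes to 65.3 to 68.8 and 44.5 to 48.8. The sum of the guards over that of the effectors was 1.79 to 1.93 in the WT RGC libraries and 2.56 to 2.67 in the mKO ones, and over the BH3-only genes it was 1.47 to 1.74 and 2.01 to 2.20. In non-RGCs the former ratio was 2.37 to 2.49 in WT and 2.63 to 3.35 in mKO libraries, and the latter overlapped, at 2.89 to 3.44 and 3.05 to 3.92. Bbc3 made up 78.0% to 80.7% of the BH3-only sum in WT RGCs and 58.1% to 61.5% in mKO RGCs, against 49.0% to 55.5% and 27.4% to 43.0% in non-RGCs. These sums rest on the same reads as the single genes, scaled by the reads on genes with no trend removed, and got no test.

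Around the family, 46 other genes of intrinsic apoptosis were listed, of which 41 were tested in RGCs. In mKO RGCs 6 rose and 11 fell, so 17 of 41 passed, against the 37.5% of all genes given above, and the median log2 fold change was -0.07 against -0.00 over all genes. All 3 mitochondrial pore genes fell, Vdac1, Vdac2 and Vdac3, whose products let metabolites cross the outer membrane and bind Bcl2 family proteins. Vdac1 gave 1722, 1839.5 and 1771 normalized reads in mKO and 2565, 2612 and 2729.7 in WT RGCs (log2 fold change -0.57, SE 0.0527, adjusted p = 0.000674). Vdac2 was at -0.32 (SE 0.0521, adjusted p = 0.00356) and Vdac3 at -0.39 (SE 0.0636, adjusted p = 0.00389).

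**Figure D5:**
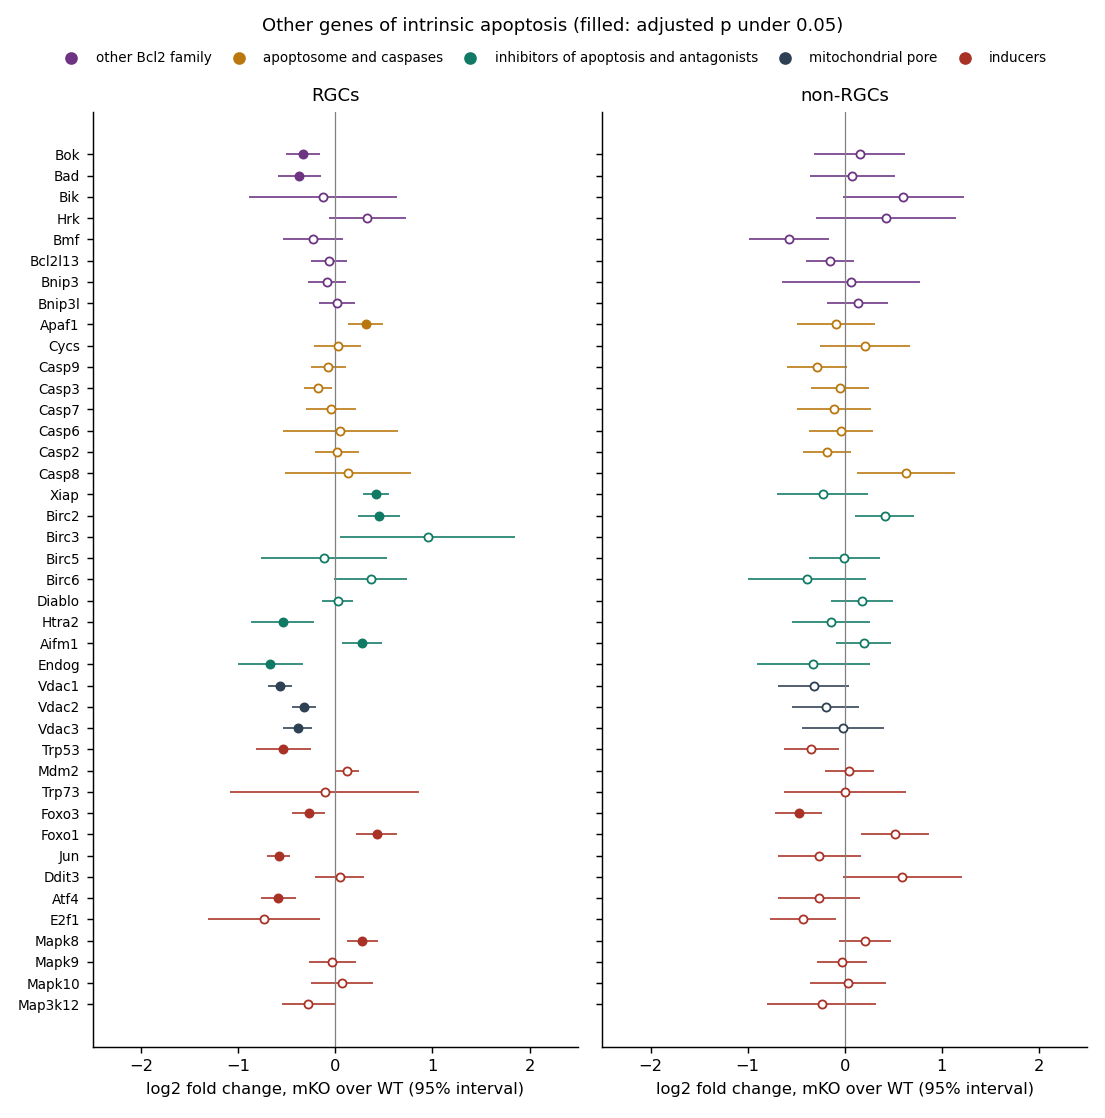
Log2 fold change of mKO over WT with its 95% interval for the other genes of intrinsic apoptosis in RGCs (left) and non-RGCs (right), coloured by group, with filled points for an adjusted p under 0.05. In RGCs 17 of 41 points are filled, among them all 3 Vdac genes, and in non-RGCs 1 of 40, Foxo3.

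The Vdac genes kept this direction and passed after both trends were removed, at -0.23 (adjusted p = 0.0372) for Vdac1, -0.23 (adjusted p = 0.0382) for Vdac2 and -0.81 (adjusted p = 0.0058) for Vdac3. They were the only genes of the list that did, so 3 of 41 passed, against 6.33% of all genes (2.22% higher and 4.11% lower). The exons of the Vdac genes held 49.4%, 47.9% and 40.6% GC, and genes as low in GC as Vdac3 had a median above 0, as given above. Vdac3 has a pseudogene copy, Vdac3-ps1, with 31.4, 36.9 and 27.3 normalized reads in mKO and 17.2, 17.4 and 12.8 in WT RGCs (log2 fold change 0.97, SE 0.252, adjusted p = 0.0221), so its reads may be split between the copies and its value is uncertain. Of the inhibitors of caspases, Xiap rose by 0.42 (SE 0.0558, adjusted p = 0.00181) and Birc2 by 0.45 (SE 0.0906, adjusted p = 0.00833). Of the inducers, Jun, which is switched on in axotomized RGCs, was at -0.58 (SE 0.05, adjusted p = 0.000651) and Atf4, a factor of the stress response, at -0.59 (SE 0.0766, adjusted p = 0.00167). Endog, a nuclease of mitochondria, was at -0.67 (SE 0.142, adjusted p = 0.0101). With both trends removed these 5 did not pass, with adjusted p between 0.163 and 0.687.

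By group, 2 of 8 tested genes among the other Bcl2 relatives fell, Bok and Bad. Neither passed after the GC trend was removed, when Bok was at 0.23 (adjusted p = 0.0946) and Bad at 0.05 (adjusted p = 0.711), so the direction of both turned. Of the apoptosome and caspase genes 1 of 8 rose, Apaf1, the scaffold of the apoptosome, at 0.31 (adjusted p = 0.0174) and at 0.16 (adjusted p = 0.217) without the GC trend. The inhibitors and their antagonists had 3 of 9 higher and 2 of 9 lower, and the inducers 2 of 13 higher and 4 of 13 lower. In non-RGCs 1 of 40 tested genes passed, against the 10.6% of all genes. This was Foxo3, a transcription factor that can induce Bcl2l11 and Bbc3, with 2773, 2382 and 2528 normalized reads in mKO and 3563, 3719 and 3383 in WT non-RGCs (log2 fold change -0.47, SE 0.107, adjusted p = 0.0257). In RGCs it was among the genes that fell, at -0.28 (SE 0.0721, adjusted p = 0.0225). After both trends were removed its adjusted p was 0.905 in RGCs and 0.332 in non-RGCs. Foxo1, also listed among the inducers, rose in RGCs, at 0.42 (SE 0.0896, adjusted p = 0.0101). In non-RGCs Foxo1 was at 0.52 (adjusted p = 0.0616). Its rise in RGCs passed with the GC trend removed (0.44, adjusted p = 0.0214) and not with both removed (adjusted p = 0.101). Trp53, which encodes p53, fell in RGCs, at -0.54 (SE 0.12, adjusted p = 0.0129). With the GC trend removed Trp53 did not pass (adjusted p = 0.0988). Bcl2a1a, Bcl2a1b, Bcl2a1d, Bcl2l10 and Bcl2l14 were under the minimum of 10 in both fractions and Birc3 in non-RGCs.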

How the data were processed

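Single-end, poly-A selected libraries were aligned to mm10 with STAR 2.3.1z4, counted per gene with featureCounts and normalized with DESeq by the authors, and the names of the deposited tables say that primary alignments were kept and duplicates removed. The signal values the authors deposited are, for each genotype, the mean over 3 libraries of gene counts divided by DESeq size factors, in separate tables for RGCs and non-RGCs. The tables also hold the authors' ratio, log2 ratio, p-value and adjusted p-value, which were left out here. Of columns with values per sample, 0 went unused. Samples were grouped by their titles.

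Since reads are whole numbers and the size factors of a group are fixed, the reads of every library were recovered exactly from the 15 digits of the means, which was tested on simulated means. Reads were divided by the authors' size factors, and log2(value + 1) was tested with limma 3.58.1 (mean-variance trend, R 4.3.3) on genes whose mean reached 10 in 1 genotype or both, with Benjamini-Hochberg adjustment over all genes and a call at an adjusted p under 0.05. A fold change on this scale understates changes of genes with few reads. Exact permutation over 3 against 3 cannot go below p = 0.1, so none was run. The fits were tested on simulated data, where the fit on the deposited scaling made many false calls once a GC trend was simulated and the fits with trends removed made few. The simulated trend was linear in GC and equal in all mKO libraries, with no trend in reads per base. This outcome was therefore built in. It checks the code and does not say which calls in these data are false. Exon length and GC were computed from GENCODE M21 (GRCm38, the build mm10 names). GC trends were removed by lowess (span 0.3), and trends with GC and reads per base over 300 neighbouring genes. Python 3.11.15, numpy 2.4.6, pandas 2.3.3 and statsmodels 0.14.6 were used.

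The text names all 10 members and, of the 46 listed pathway genes, at most 8 that passed in a comparison by smallest p. Foxo3 in RGCs, Foxo1, Trp53, Mapk8, Bok, Bad and Apaf1 were named after their values were seen. The members and lists were chosen with earlier results of these data known. The promoters to print were chosen after the fits. Alternatives were another pseudocount, other filters, TMM factors, centring, trend removal, another call rule, leaving out each library, and limma-voom, which was added after seeing the data. Counts of reads do not separate PCR copies from molecules beyond the removal of duplicates.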

Additional observations from a re-analysis of the deposited data

How the results depend on the processing

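No paired analysis was possible because the recovered libraries carry no replicate number. The planned count tests were not run, since the plan kept them for deposited counts and the deposited values are means over libraries. The recovered whole reads would have allowed such tests, and limma-voom was fitted on these reads. In RGCs 2 members were higher and 5 lower: 1 and 1 with GC and reads-per-base trends removed, 1 and 2 with the GC trend removed, and 1 and 3 at a p under 0.05 with a 1.5-fold change; without 1 library the number higher ran from 0 to 4 (4 without WT library C, 1 without mKO library B, 0 without any other), and the number lower from 4 to 5. Of the pathway list 6 were higher and 11 lower: 0 and 3, 1 and 6, and 1 and 3 under the same settings, 7 lower in limma-voom, and without 1 library 2 (mKO library A; 3 without mKO library C) to 9 (WT library C) higher and 7 (mKO library C) to 17 (WT library C) lower. In non-RGCs 0 members were higher and 1 lower: 1 higher in limma-voom, with the median of all genes set to 0, and under the p and fold rule, 0 lower after either removal, and 0 to 1 higher and 0 to 2 lower without 1 library, with 0 lower without WT library A or B or mKO library B and 2 without mKO library C, and 1 higher without WT library C. Of the pathway list 0 were higher and 1 lower: 3 higher in limma-voom, 1 higher with the median set to 0 and under the p and fold rule, 0 lower after either removal, in limma-voom and under the p and fold rule, and 0 to 1 higher (1 without mKO library C) and 0 to 3 lower without 1 library (0 without WT library A or B or mKO library B, 3 without mKO library C). The direction turned for Mcl1 with both trends removed (log2 fold change 0.0093 in RGCs, 0.021 in non-RGCs), for Bax in non-RGCs under the same setting (0.041), and for Bcl2l2 in non-RGCs without WT library A (-0.0098, and up to 0.080 without WT library C). Of the called pathway genes in RGCs, Bok, Bad and Mapk8 turned after either removal (0.23, 0.052 and -0.28 without the GC trend) and Endog without the GC trend (0.049). The causes of these changes were not tested. The number of members that differed between the fractions was 0 under the 3 alternatives run and without any 1 library. The other filters, the pseudocount of 0.5 and TMM factors kept every count of calls within 1.5 times. Depth limits Pmaip1 most, with 6 to 111 reads per library.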
